A study of Mus musculus with 10 samples.

Results

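Molecular chaperones and the stress sensors that control them were followed here in CD8 T cells recovered from mouse melanomas, with or without the transcription factor NFAT5. The 32 genes were taken from a given list of heat shock, unfolded protein response and folding genes. They are 32 of 54408 genes with a matched transcript, and all 32 were among the 13081 genes tested. By compartment, 13 act in the cytosol and nucleus and 17 in or for the endoplasmic reticulum (ER). The other 2, Hspe1 and Hspd1, encode the mitochondrial co-chaperonin and chaperonin, although the list names only the cytosol and ER.

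The study asked how RNA in tumour-infiltrating CD8 T cells depends on NFAT5, a factor of the NFAT family best known for responding to hypertonicity. All T cells carried the P14 transgenic T cell receptor, which recognises the gp33 peptide, and floxed Nfat5 alleles on a C57BL/6 background. The 5 libraries labelled WT had no Cre, and the 5 labelled NFAT5 KO had 1 copy of a Cre transgene driven by the Cd4 promoter, which is active in developing T cells. Both kinds of cell were activated in culture for 48 h, and 5000000 were injected into mice with subcutaneous B16-gp33 melanoma, a mouse line made to express gp33. After 7 days the tumours were dissociated and their CD8 T cells sorted. Host CD8 T cells could enter the tumour too, and the labels do not give a gate that separates them from P14 cells. Nor do they tie each library to its own mouse, and p-values here reflect only how far libraries of 1 label spread, which may be technical in part.

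Heat shock proteins of the cytosol hold and refold proteins. HSP70 proteins, such as HSC70 and the inducible HSP70 pair, work with J-domain co-chaperones that deliver clients and with exchange factors that reset them, and HSP90 matures kinases and receptors. When unfolded protein accumulates, HSF1 binds heat shock elements, inverted repeats of GAA, and switches their genes on. In the ER the same role falls to BiP, GRP94, lectin chaperones and protein disulfide isomerases. Their genes are under the unfolded protein response, in which the sensors IRE1, ATF6 and PERK act through XBP1, cleaved ATF6 and ATF4. XBP1 and ATF6 read ER stress elements upstream of these genes. Activated T cells raise both systems as their protein synthesis grows, and the acid, nutrient-poor interior of a tumour is known to strain them.

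These elements were found before the RefSeq starts of some members. RefSeq promoter sequences (GRCm38.p6) matched 25 of the 32 members, and the 250 bases before each start were searched on both strands. The ER stress element, spelled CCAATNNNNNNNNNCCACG, was in 6 of the 14 ER members with a sequence. It was in 0.113% of 32851 promoters and 0.13% of 27025 genes. These 6 are shown because they mark the ER group that XBP1 and ATF6 are known to read, with the element, on whichever strand, in capitals. All sequences run 5′ to 3′ on the gene's own strand.
Hspa5 (chr2:34772020-34772048, plus strand): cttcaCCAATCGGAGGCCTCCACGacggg
Hsp90b1 (chr10:86705626-86705668, minus strand): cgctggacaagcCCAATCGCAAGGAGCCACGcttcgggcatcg
Hsp90b1 (chr10:86705521-86705563, minus strand): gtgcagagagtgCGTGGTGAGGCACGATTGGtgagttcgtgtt
Calr (chr8:84847063-84847105, minus strand): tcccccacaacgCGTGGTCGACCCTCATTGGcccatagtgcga
Canx (chr11:50325788-50325830, minus strand): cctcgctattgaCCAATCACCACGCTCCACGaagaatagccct
Pdia6 (chr12:17266479-17266521, plus strand): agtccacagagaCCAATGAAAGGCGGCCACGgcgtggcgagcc
Creld2 (chr15:88819508-88819550, plus strand): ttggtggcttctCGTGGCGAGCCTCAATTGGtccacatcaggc
The first bases of these elements lay 65 to 212 bases before the start. Of the stretches above, only that of Hspa5 overlaps an exon annotated in GENCODE M21. A shorter relative, ERSE-II (ATTGGNCCACG), was in 0.0304% of promoters and among the members only in Herpud1, a component of ER-associated degradation.
Herpud1 (chr8:94386365-94386399, plus strand): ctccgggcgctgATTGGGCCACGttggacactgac

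Heat shock elements were searched as GAANNTTC and TTCNNGAA, held by 6.69% and 7.17% of promoters. Counted by gene, over any of its starts, the shares were 7.73% and 8.11%. At least 1 of these was in 6 of the 9 cytosolic members with a sequence, namely Hspa1a, Hspa1b, Hspb1, Dnaja1, Hsph1 and Dnajb4. By element, GAANNTTC was in 4 of the 9 and TTCNNGAA in 2, and the share of all genes with either was not counted. Hspe1 and Hspd1 are transcribed away from each other from 1 shared region, which held overlapping elements, including the 3-unit form GAANNTTCNNGAA found in 0.466% of promoters. Shown are the inducible Hspa1 pair, Hspb1 and the shared mitochondrial region, with each GAA-TTC pair in capitals.
Hspa1a (chr17:34972241-34972272, minus strand): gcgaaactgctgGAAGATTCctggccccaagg
Hspa1b (chr17:34959323-34959354, minus strand): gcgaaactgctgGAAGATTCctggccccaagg
Hspb1 (chr5:135887790-135887841, plus strand): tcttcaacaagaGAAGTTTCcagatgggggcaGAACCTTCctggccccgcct
Hspe1 and Hspd1 (chr1:55088053-55088082, plus strand): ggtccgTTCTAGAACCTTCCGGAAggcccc
The mitochondrial stretch overlaps an exon annotated in GENCODE M21, and the Hspa1 and Hspb1 stretches do not. The 2 stretches of the Hspa1 pair are identical, and over the whole window 247 of 250 bases matched. Hspa1a and Hspa1b are close paralogs, between which Salmon, the authors' counting tool, divides reads by a model, and the value of each gene alone is less certain.

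Of the 32 members, 5 were higher in NFAT5 KO, 1 was lower and 26 did not pass the test. The members that rose were Hspa8 and Hsp90ab1, the abundant constitutive HSP70 and HSP90 of the cytosol, the cytosolic co-chaperones Dnajb2 and Dnajb4, and the ER co-chaperone Dnajb9. The gene that fell was Hspb1, the small heat shock protein HSP27. The test was edgeR's quasi-likelihood test with Benjamini-Hochberg adjustment over all genes tested, passed at an adjusted p below 0.05. Members passed at 18.8%, against 9.01% of all genes tested. For the higher direction the shares were 15.6% of members and 3.38% of all genes, and 5.63% of all genes were lower. At an unadjusted p below 0.05, 16 members were reached, 50% of the list against 23.2% of all genes, and 13 of the 16 were higher. Over all genes tested, 3041 were reached, of which 1453 were higher. The members were chosen with earlier results of these data known, so these shares describe the list and do not test it. The background also depends on expression: with a minimum of 5 CPM (defined below) in 5 libraries, 1265 of 9357 genes passed, 511 of them higher. In that setting 6 members were higher.

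By compartment, the counts were as follows. In the cytosolic group, 4 of 13 rose and 1 fell, 12 had a positive log2 fold change and the median was 0.35. That median is the value of Hspa1a, which has a wide error (SE 0.69). Without NFAT5 KO 678_5, Hspa1a was at -1.19, Hspa1b at -0.54 and the cytosolic median at 0.21. In the ER group, 1 of 17 rose and none fell, 10 were positive and the median was 0.11, and in the mitochondrial pair neither passed, with a median of 0.10. Over all 13081 genes tested, 6779 were positive and the median was 0.02. Whether the compartments differ from each other was not tested.

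**Figure D1:**
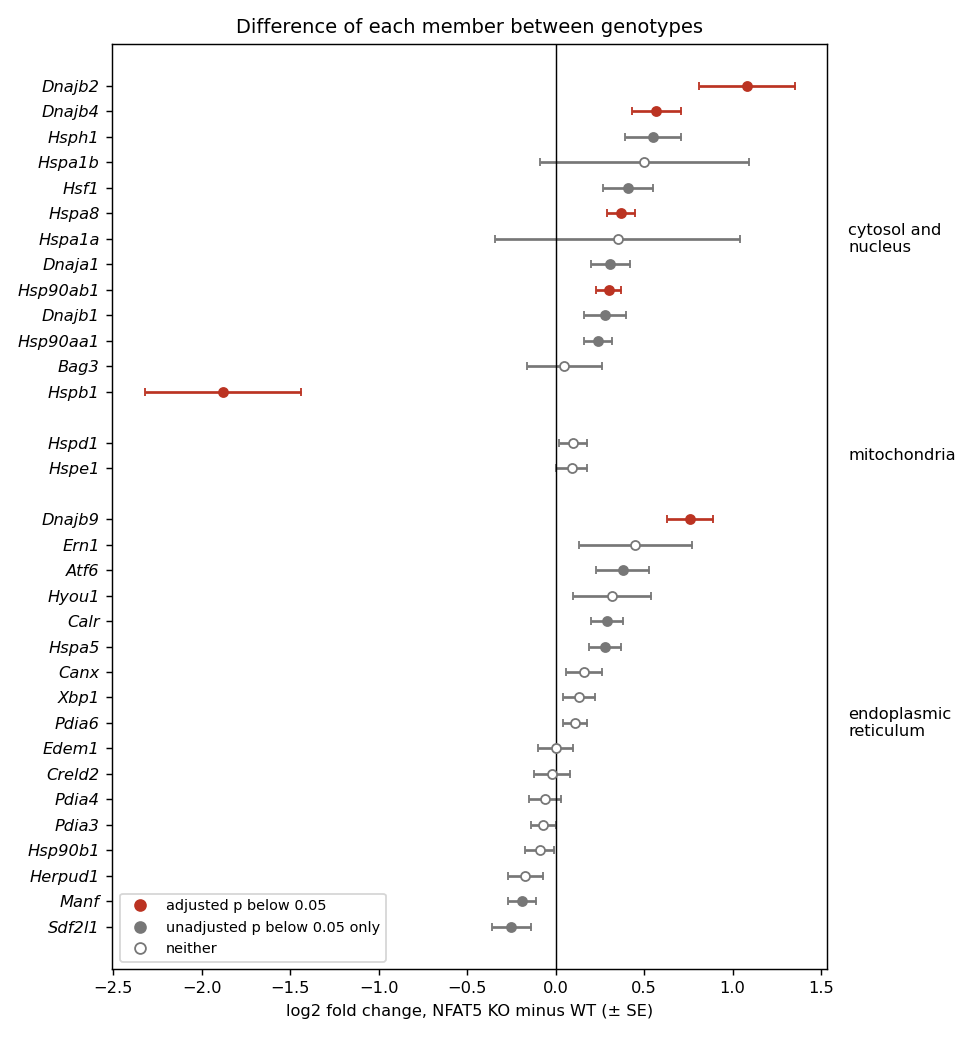
Log2 fold change of each of the 32 members, NFAT5 KO minus WT (x axis), with bars of ± 1 standard error, grouped by compartment. Red points passed an adjusted p of 0.05, filled grey points only an unadjusted p of 0.05, and open points neither. Dnajb2 stands highest at 1.08 and Hspb1 lowest at -1.88, and most ER members lie within 0.3 of 0.

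Summed over the 13 cytosolic members, the level was 7167, 8522, 7501, 7688 and 7167 CPM (counts scaled to 1000000 per library after TMM normalization) in the WT libraries (678_2 and 678_4, then 679_3, 679_4 and 679_5). It was 9121, 10972, 9567, 8720 and 9963 CPM in NFAT5 KO (678_3, 678_5 and 678_6, then 679_2 and 679_6). Every NFAT5 KO library was above every WT library, though the lowest (8720) and the highest WT library (8522) lay close. Most of this sum, and of its rise, came from Hspa8 and Hsp90ab1, which passed the test singly. Mean WT levels were 3919 for Hspa8, 1993 for Hsp90ab1 and 7609 for the whole sum. The matching NFAT5 KO means were 5073, 2459 and 9669. The cytosolic sum therefore says little about the other cytosolic members. The ER sum ran from 5982 to 6634 CPM in WT and from 6461 to 7215 in NFAT5 KO, so these groups overlapped, as did the mitochondrial sums (590 to 688 and 625 to 758 CPM). In bulk libraries, a different mix of cells and a different amount of RNA per cell cannot be told apart. Below, values by library follow the library order given here.

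Hspa8, the constitutive HSP70 known as HSC70, had the most RNA of the members per length, at 3743 ± 289 TPM (an abundance per transcript length that sums to 1000000 per library, SD, n = 5) in WT and 4851 ± 346 TPM in NFAT5 KO. WT libraries held 3782, 4425, 3864, 3936 and 3589 CPM, and NFAT5 KO libraries 4887, 5470, 5081, 4522 and 5406 CPM. All 5 NFAT5 KO libraries lay above all 5 WT libraries, a pattern that 3.92% of all genes tested also had. Its log2 fold change of 0.37 (SE 0.08, adjusted p = 0.00886) is a rise of 1.29-fold, and it passed in each of 10 fits that left out 1 library. About 33.1% of its TPM in WT, and 32.4% in NFAT5 KO, was assigned to a processed transcript of 598 bases.

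Hsp90ab1, the constitutive HSP90, held 1848, 2245, 1960, 1973 and 1942 CPM in WT and 2370, 2564, 2409, 2467 and 2484 CPM in NFAT5 KO. Again no NFAT5 KO library reached down into the WT range. The rise was 0.30 on the log2 scale (SE 0.07, adjusted p = 0.0129), and without WT 678_2, the lowest library, the adjusted p was 0.0569. Its inducible partner Hsp90aa1 held 671, 870, 751, 806 and 719 CPM in WT and 845, 948, 923, 842 and 957 CPM in NFAT5 KO, and the ranges overlapped through WT 678_4. The difference of 0.24 (SE 0.08) did not pass, with an adjusted p of 0.0875. Hsp90aa1 did pass DESeq2's Wald test (adjusted p = 0.0459) and limma-voom (adjusted p = 0.0333). It did not pass in 12 other settings or in any of the 10 fits that left out 1 library.

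Dnajb4 and Dnajb2 are J-domain proteins that hand clients to HSP70. Dnajb4 held 23.6, 26.4, 29.0, 26.9 and 18.7 CPM in WT and 32.8, 34.2, 36.6, 38.1 and 44.1 CPM in NFAT5 KO, with no overlap. It rose by 0.57 (SE 0.14, adjusted p = 0.0261). Dnajb2 held 6.97, 13.5, 10.4, 5.43 and 12.0 CPM in WT and 24.2, 21.8, 17.7, 25.3 and 13.0 CPM in NFAT5 KO. Its increase of 1.08 (SE 0.27, adjusted p = 0.0261), 2.11-fold, was the largest of the 32, and 1 NFAT5 KO library, 679_6, fell within the WT range. Both calls rest on few libraries: leaving out 1 library at a time, each passed in 5 of 10 fits, with adjusted p-values up to 0.0811 for Dnajb4 without NFAT5 KO 679_6 and up to 0.0723 for Dnajb2 without WT 678_2. Dnajb2 also failed once transcript length was offset (0.93, adjusted p = 0.108). Its TPM was spread over many isoforms, with a coding isoform of 1823 bases taking 23.6% ± 20.9 (SD, n = 5) in WT and 7.8% ± 8.1 in NFAT5 KO.

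The other J-domain members and the exchange factor Hsph1, HSP110, were higher in mean but did not pass in the main setting. Hsph1 held 176, 268, 233, 191 and 222 CPM in WT and 284, 455, 313, 241 and 296 CPM in NFAT5 KO, where 678_5 was the highest. Its difference was 0.55 (SE 0.16, adjusted p = 0.0559). Hsph1 passed in 4 alternative settings, among them DESeq2's Wald test (adjusted p = 0.0135) and limma-voom (adjusted p = 0.0452). In 10 others it did not pass, and in 1 its sign turned. Dnaja1, an HSP70 co-chaperone, held 251, 305, 290, 307 and 267 CPM in WT and 317, 438, 364, 294 and 350 CPM in NFAT5 KO (0.31, SE 0.11, adjusted p = 0.095).

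Dnajb1, HSP40, the classic partner of inducible HSP70, held 147, 150, 176, 175 and 145 CPM in WT. In NFAT5 KO it held 173, 245, 190, 160 and 193 CPM (0.28, SE 0.12, adjusted p = 0.162). In these 3 genes the highest library was NFAT5 KO 678_5, and the groups overlapped. Without that library the difference of Dnajb1 was 0.16, that of Dnaja1 0.20 and that of Hsph1 0.36.

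Hsf1, the regulator of the heat shock response, held 54.4, 65.6, 64.3, 44.8 and 81.2 CPM in WT and 74.7, 86.1, 78.1, 85.7 and 88.6 CPM in NFAT5 KO. Only WT 679_5 reached the NFAT5 KO range, and without it the difference rose from 0.41 (SE 0.14, adjusted p = 0.0901) to 0.51 and passed, at an adjusted p of 0.0307. With all libraries, Hsf1 passed DESeq2's Wald test (adjusted p = 0.0444) but not limma-voom (adjusted p = 0.0709). Bag3, an HSP70 exchange factor of stressed cells, had 8.68 to 17.0 CPM in WT and 10.4 to 16.7 CPM in NFAT5 KO, with a difference of 0.05 (SE 0.21, adjusted p = 0.92).

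Hspb1 went the other way. WT libraries held 3.10, 2.83, 3.18, 2.49 and 1.58 CPM, and NFAT5 KO libraries 1.06, 0.733, 0.762, 0.308 and 0.712 CPM. Every NFAT5 KO library was below every WT library, as in 6.41% of all genes tested, and the fall was to 0.272 of the WT level (log2 fold change -1.88, SE 0.44, adjusted p = 0.0183). The level is low: estimated counts ran from 8.98 to 100 a library, and a minimum of 5 CPM would leave the gene out. Without WT 678_2 the adjusted p was 0.0545.

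The inducible pair Hspa1a and Hspa1b was the most variable. Hspa1a held 69.4, 60.0, 35.4, 76.4 and 59.3 CPM in WT and 31.0, 275, 30.4, 9.83 and 35.0 CPM in NFAT5 KO. Hspa1b held 125, 72.3, 70.0, 129 and 99.3 CPM in WT and 68.0, 424, 106, 19.7 and 82.5 CPM in NFAT5 KO. The high values are both of library 678_5 and the lowest both of 679_2, and the highest library was 28.0 times the lowest for Hspa1a within NFAT5 KO, against 2.16 times within WT. With all libraries the differences were 0.35 (SE 0.69, adjusted p = 0.818) and 0.50 (SE 0.59, adjusted p = 0.667). With the counts of the pair summed, the difference in edgeR was 0.44 (adjusted p = 0.72). The summed pair was not fitted again without 678_5. Without NFAT5 KO 678_5, Hspa1a was lower in NFAT5 KO and passed (-1.19, adjusted p = 0.0487), and Hspa1b turned to -0.54 without passing. That library was the highest of all 10 for 7 of the 13 cytosolic members, and its own cytosolic sum was 10972 CPM. Without it the cytosolic median was 0.21 in place of 0.35, while Hspa8, Hsp90ab1, Dnajb4, Dnajb9 and Hspb1 kept their calls and Dnajb2 had an adjusted p of 0.0516.

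**Figure D2:**
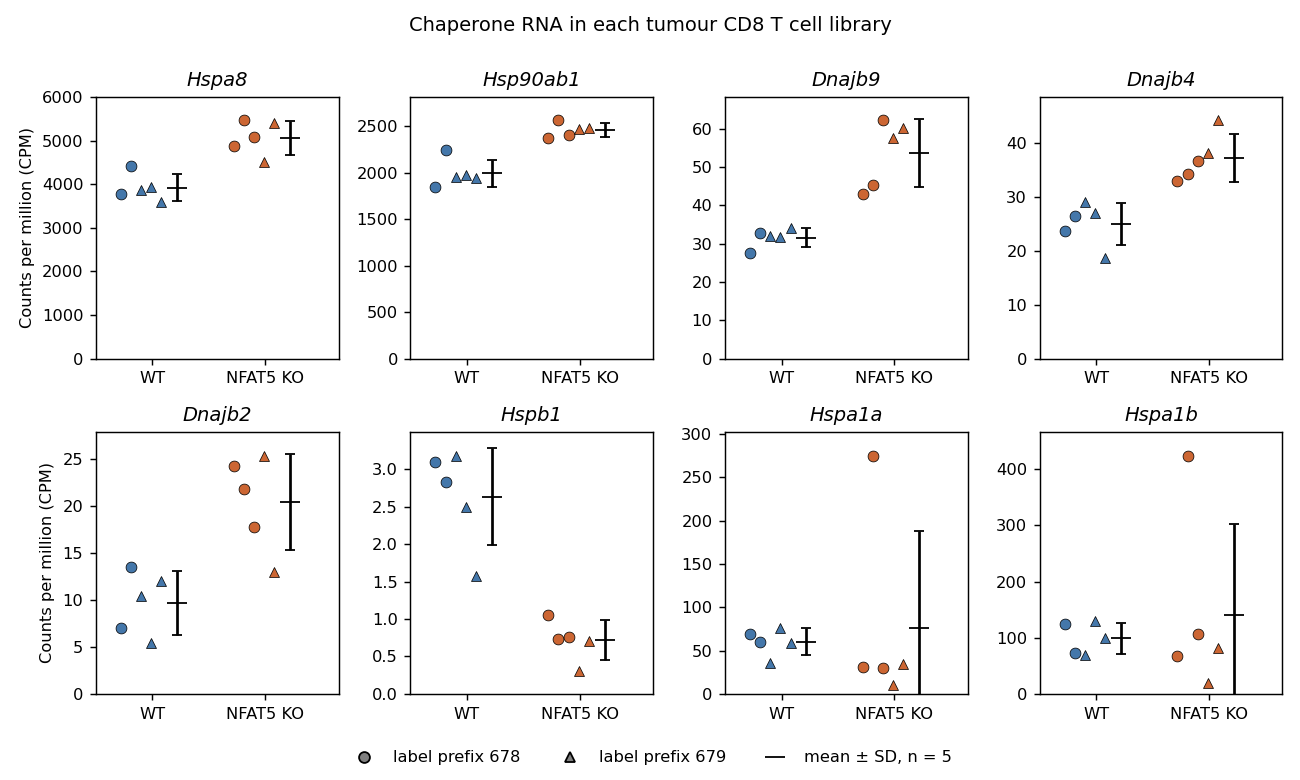
CPM (y axis, linear, starting at 0) of the 6 members that passed the test and of the Hspa1 pair, 1 point per library, by genotype, with mean ± SD beside each group of 5. The lower bars of the Hspa1 pair in NFAT5 KO run below the axis because 678_5, at 275 and 424 CPM, stands far above the other 4 libraries.

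In the ER, Dnajb9 had the clearest difference of all members. It encodes ERdj4, a J-domain protein that works with BiP and is a known target of XBP1. WT libraries held 27.5, 32.8, 31.9, 31.7 and 34.0 CPM, and NFAT5 KO libraries 43.1, 45.3, 62.2, 57.6 and 60.1 CPM. The lowest NFAT5 KO library (43.1) lay well above the highest WT library (34.0). The rise was 0.76 (SE 0.13, 1.70-fold, adjusted p = 0.00322), and it passed in all 10 fits that left out 1 library.

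The other 16 ER members did not pass. Ern1 (IRE1) and Xbp1, the arm upstream of Dnajb9, had differences of 0.45 (SE 0.32, adjusted p = 0.446) and 0.13 (SE 0.09, adjusted p = 0.394), and Ern1 was scarce, at 2.43 to 7.60 CPM. The gene total of Xbp1, of whose TPM 1 annotated isoform took 95.3% in WT and 95.2% in NFAT5 KO, does not tell the spliced, active form from the unspliced one. Atf6 held 59.1, 75.1, 60.1, 45.8 and 59.0 CPM in WT and 93.3, 84.8, 65.0, 62.4 and 83.0 CPM in NFAT5 KO. Its groups overlapped through WT 678_4 (0.38, SE 0.15, adjusted p = 0.141).

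Hspa5, BiP, the main HSP70 of the ER, held 1352, 1769, 1577, 1619 and 1481 CPM in WT and 1741, 1795, 1755, 2106 and 2078 CPM in NFAT5 KO. One WT library, 678_4, lay within the NFAT5 KO range, and the difference of 0.28 (SE 0.09) had an adjusted p of 0.0691. Calr, the lectin chaperone calreticulin, held 772, 911, 744, 624 and 828 CPM in WT and 903, 1037, 922, 912 and 962 CPM in NFAT5 KO. Here too WT 678_4 alone reached the NFAT5 KO range (0.29, SE 0.09, adjusted p = 0.0791), and without it Calr passed at 0.0378. Canx, the membrane-bound lectin calnexin, differed by 0.16 (SE 0.10, adjusted p = 0.353).

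Hspa5, Calr and Canx share the ER stress element printed above with Hsp90b1, Pdia6 and Creld2, and none of the 6 passed edgeR's test. Hsp90b1, GRP94, the HSP90 of the ER, held 678, 657, 666, 805 and 686 CPM in WT and 605, 645, 665, 637 and 730 CPM in NFAT5 KO (-0.09, SE 0.08, adjusted p = 0.54). The disulfide isomerase Pdia6 differed by 0.11 (SE 0.07, adjusted p = 0.394) and Creld2 by -0.02 (SE 0.10, adjusted p = 0.932). Of the 6, Hspa5 and Calr had unadjusted p-values below 0.05 and passed DESeq2's Wald test (adjusted p = 0.032 and 0.042). Dnajb9, the ER member that rose, held no ER stress element in this window.

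At the other end, 2 small ER stress genes were lower in mean without passing. Sdf2l1, a BiP cofactor, held 115, 94.6, 82.0, 104 and 96.5 CPM in WT and 101, 78.1, 74.6, 80.9 and 79.1 CPM in NFAT5 KO (-0.25, SE 0.11, adjusted p = 0.203). Manf, a secreted BiP-binding protein, held 107, 108, 110, 118 and 107 CPM in WT and 102, 91.2, 98.6, 87.8 and 103 CPM in NFAT5 KO. All of its NFAT5 KO libraries were below all WT libraries, yet the difference was small (-0.19, SE 0.08) and its adjusted p was 0.175. Both are commonly induced together with Hspa5 under ER stress. Their signs were opposite to that of Hspa5, which did not pass either, and a difference in ER stress was not tested.

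The remaining ER members did not reach an unadjusted p below 0.05. The disulfide isomerases Pdia3 and Pdia4 differed by -0.07 and -0.06 (both SE 0.07 to 0.09), and the degradation factors Herpud1 and Edem1 by -0.17 (SE 0.10) and 0.00 (SE 0.10). Hyou1, GRP170, an exchange factor for BiP, differed by 0.32 with a wide error (SE 0.22, adjusted p = 0.413), as WT 679_4 held 49.6 CPM and the other WT libraries 103 to 137 CPM. In the mitochondria, Hspe1 had 130 to 149 CPM in WT and 128 to 170 CPM in NFAT5 KO (0.09, SE 0.09, adjusted p = 0.609). Hspd1 had 460 to 540 and 480 to 601 CPM (0.10, SE 0.08, adjusted p = 0.5). Neither reached an unadjusted p below 0.05, and neither passed DESeq2's or limma-voom's test. Whether the heat shock element in their shared region was in use was not tested.

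**Figure D3:**
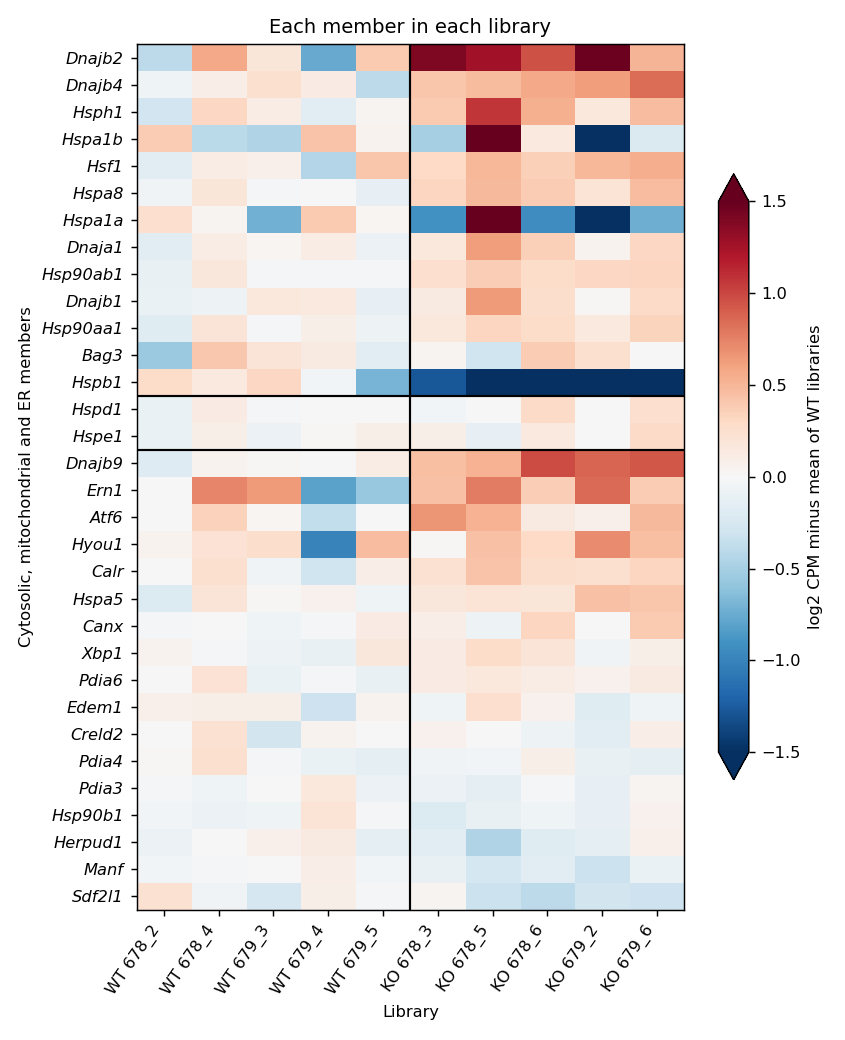
Log2 CPM of each member (rows) in each library (columns), as the difference from the mean of the 5 WT libraries on that scale. Lines separate genotypes and compartments, and the colour scale stops at ± 1.5. Dnajb2, Dnajb4 and Dnajb9 are red in all 5 NFAT5 KO libraries, Hspb1 is blue in all 5, and the Hspa1 pair is red in 678_5 and blue in 679_2.

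Per length, a few genes made up most of the chaperone RNA, measured as TPM. In WT libraries Hspa8 (3743 ± 289 TPM) was followed by Hsp90ab1 (1303 ± 109), Hsp90aa1 (976 ± 82.7) and Hspa5 (923 ± 99.5). In TPM the pair Hsp90aa1 and Hspa5 did not differ beyond their spread, nor did Pdia3 (478 ± 25.7) and Calr (449 ± 71.4) below them. In CPM, Hsp90aa1 was lower in WT (763 ± 77.3) than Hspa5 (1560 ± 156). About 41.3% of the TPM of Hsp90aa1 in WT was assigned to an isoform of 711 bases, so its place depends on the measure. Ern1 (1.73 ± 0.983), Hspb1 (5.96 ± 1.73), Bag3 (6.52 ± 1.71), Dnajb2 (7.04 ± 3.41), Atf6 (8.32 ± 1.65) and Dnajb4 (11.4 ± 1.61) were at the bottom. So 3 of the 6 members that passed were among the scarcest, and 2 were the most abundant.

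The promoters of the called members were also read for the motif of NFAT proteins, TGGAAA, and for its extended form that NFAT5 prefers, the tonicity element, searched by its consensus. This search was added after the calls were known. The core was in 18.6% of promoters and the tonicity element in 4.31%. Counted by gene, over any of its starts, the shares were 20.9% and 5.01%. Of the 6 called members, 4 had a sequence, and each of the 4 held the core, while 3 (Dnajb9, Dnajb2 and Hspb1) held the tonicity element. Of the 21 other members with a sequence, 3 held the core and 1, Hspd1, the tonicity element. Over all genes, the tonicity element was in 5.56% of 324 higher genes, 3.99% of 551 lower genes and 4.08% of 9176 tested genes with a sequence. The core was in 20.1%, 18.9% and 17.9% of the same genes. The tonicity elements, or for Dnajb4 the core, are in capitals.
Dnajb9 (chr12:44210165-44210193, minus strand): acggcaacaACAGTTTTCCAcgtgcgcgt
Dnajb2 (chr1:75236269-75236303, plus strand): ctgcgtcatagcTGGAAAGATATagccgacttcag
Hspb1 (chr5:135887789-135887823, plus strand): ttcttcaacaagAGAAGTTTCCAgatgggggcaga
Dnajb4 (chr3:152210192-152210221, minus strand): ttgtaggggactTGGAAAggccgtcgcgga
The Dnajb9 and Dnajb4 stretches overlap exons annotated in GENCODE M21, and those of Dnajb2 and Hspb1 do not. In Hspb1 the tonicity element overlaps the first of the heat shock elements printed above. The 3 genes did not move one way, since Dnajb9 and Dnajb2 rose and Hspb1 fell. These matches describe the letters only, and binding was not measured.

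**Figure D4:**
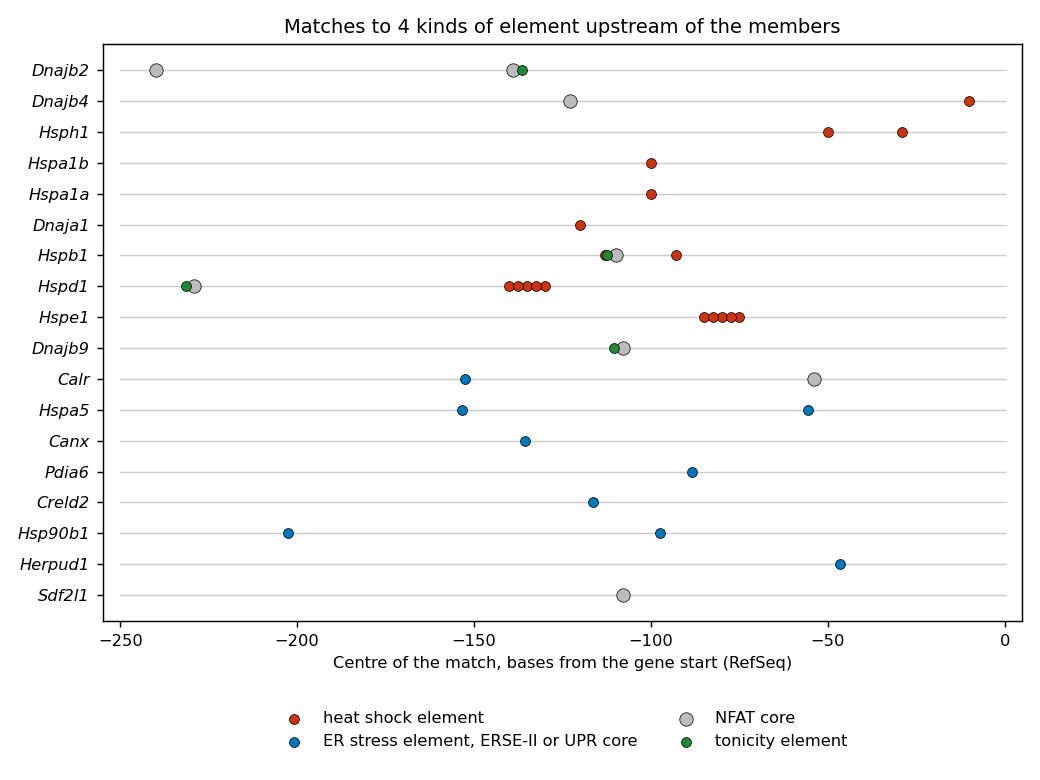
Positions of the matches in the 250 bases before each RefSeq start (x axis, bases from the start) for the 18 members with at least 1 match, with the starts of a gene drawn on 1 line. Red marks heat shock elements, blue the ER stress element, ERSE-II or the core of the UPR element (TGACGTG, in 1.65% of promoters and here in Hspa5), grey the NFAT core and green the tonicity element. Blue marks are all on ER genes, and heat shock elements all on cytosolic or mitochondrial genes.

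Related genes outside the list were counted in the same fit. For these lists and those below, 3.38% of all genes tested were higher and 5.63% lower, with a median of 0.02. Of 20 other cytosolic chaperones and HSP90 cofactors, 2 rose and none fell, with a median of 0.14: Fkbp4, an HSP90 immunophilin (317 ± 21.3 CPM in WT, 388 ± 9.29 in NFAT5 KO, 0.29, adjusted p = 0.0179), and Stip1, which links HSP70 to HSP90 (350 ± 31.2 and 432 ± 33.8 CPM, 0.30, adjusted p = 0.039). With 1 library left out, Fkbp4 passed in 6 of 10 fits and Stip1 in 1 (adjusted p up to 0.121). None of the 8 subunits of the CCT chaperonin passed in edgeR, DESeq2 or limma-voom, and 1 had an unadjusted p below 0.05, Cct3 (0.20, SE 0.08). The same holds for 10 other mitochondrial chaperones, where Grpel2 had the smallest p (0.43, SE 0.18).

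In the PERK arm and UPR signalling, 3 of 11 genes rose and none fell, with a median of 0.41, against 3.38% higher and a median of 0.02 over all genes tested. Ppp1r15a (GADD34), which restores translation after stress, went from 577 ± 71.7 to 789 ± 29.9 CPM (0.45, adjusted p = 0.00606). Ddit3 (CHOP), the stress-induced transcription factor, went from 10.8 ± 2.20 to 18.4 ± 3.54 CPM (0.77, adjusted p = 0.0304). Atf6b, the relative of Atf6, went from 87.0 ± 14.4 to 117 ± 6.91 CPM (0.43, adjusted p = 0.0342). Only Ppp1r15a passed in all 10 fits that left out 1 library, and Ddit3 passed in 3 and Atf6b in 1.

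Genes of ER folding, degradation and translocation gave few calls. None of 18 other ER folding genes passed in edgeR, DESeq2 or limma-voom, 3 had an unadjusted p below 0.05, all of them lower in mean, and the median was -0.03. Of 15 genes of ER-associated degradation, Herpud2 rose (0.36, SE 0.10, adjusted p = 0.0367). Of 12 genes of ER translocation, Sec63, a J-domain protein of the translocon, rose (0.39, SE 0.09, adjusted p = 0.0189). No gene fell in either group. With 1 library left out, Herpud2 passed in 3 of 10 fits and Sec63 in 6.

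Other lists moved with genotype in the same libraries. All 14 cell cycle genes fell, and their summed level was 1723 to 2842 CPM in WT and 430 to 854 CPM in NFAT5 KO. Of 12 immediate early genes, which stimulation switches on quickly, 7 rose and none fell, from 4635 to 5925 CPM summed in WT to 6861 to 7465 CPM in NFAT5 KO. T cell markers summed to 9458 to 10357 CPM in WT and 10629 to 11294 CPM in NFAT5 KO, and none of the 10, Cd8a and Cd3e among them, was at 0. Of the 10, 3 rose and none fell: Ptprc (0.52, adjusted p = 0.00874), Cd2 (0.46, adjusted p = 0.0204) and Cd5 (0.29, adjusted p = 0.0468). With 1 library left out, these passed in 10, 6 and 1 of 10 fits. The part of T cell content in the chaperone differences was not tested. Macrophage markers summed to 72.4 to 155 CPM in WT and 37.6 to 82.7 CPM in NFAT5 KO, none at 0, with 10 of 11 tested genes lower in mean and 1, Adgre1, past the test.

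Levels of the other marker lists were as follows. Melanoma markers summed to at most 4.27 CPM in any WT library and 3.79 CPM in any NFAT5 KO library, with Sox10 at 0. Markers of B and plasma cells, which carry much ER chaperone RNA, had Jchain, Mzb1 and Iglc2 at 0 in all libraries. Their sum, 279 to 654 CPM in WT and 232 to 294 CPM in NFAT5 KO, was mostly Ighm, which fell from 419 ± 141 to 257 ± 24.0 CPM (-0.70, SE 0.19, adjusted p = 0.0343). Its part in the chaperone differences was not tested. Dendritic cell markers (34.7 to 76.7 and 25.3 to 63.3 CPM) lacked Siglech. Fibroblast and endothelial markers (39.7 to 69.4 and 35.3 to 50.4 CPM) lacked Col1a2, Dcn, Pdgfra, Cdh5 and Kdr.

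The chaperone values were set against these lists. With the mean of the macrophage markers as a covariate the log2 fold changes were 0.31 for Hspa8, 0.23 for Hsp90ab1, 0.78 for Dnajb2, 0.66 for Dnajb4, 0.77 for Dnajb9 and -1.71 for Hspb1, but no member passed, and only 4 genes of all tested did. With the cell cycle mean as a covariate Hspa8 was at 0.30, Dnajb4 at 0.51, Hsp90ab1 at 0.04, Dnajb2 at 0.26, Dnajb9 at 0.06 and Hspb1 at -0.08, and none passed (adjusted p = 1 for all 6). Since the cell cycle sums do not overlap between genotypes, less cell division and the loss of NFAT5 cannot be told apart here. The macrophage mean also followed genotype, with a correlation of -0.77, so this covariate too takes up part of the genotype difference. The part of the immediate early genes in these differences was not tested.

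**Figure D5:**
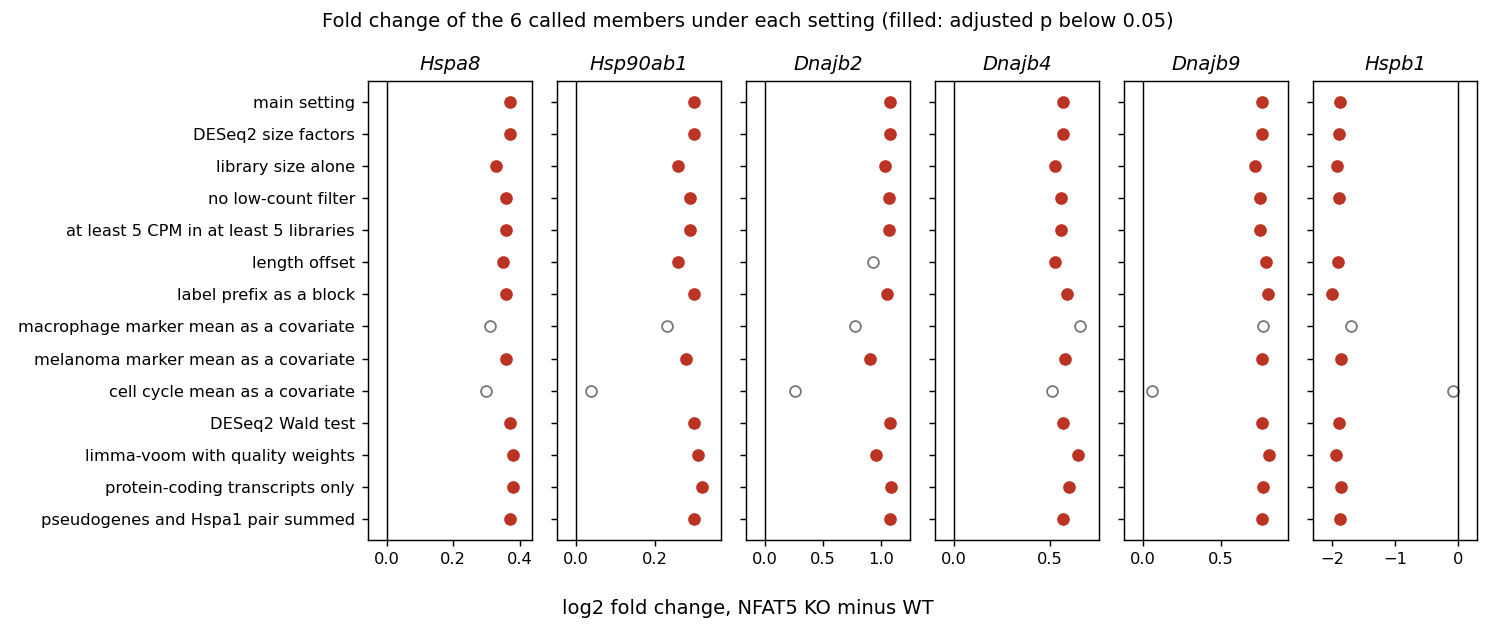
Log2 fold change (x axis, a separate scale for each gene) of the 6 called members under the main setting and 13 alternatives, with filled red points where the adjusted p was below 0.05. The points stay near the main value in most settings, lose the call with the macrophage or cell cycle covariate, and move close to 0 with the cell cycle covariate for Hsp90ab1, Dnajb9 and Hspb1. Hspb1 has no point under the stricter filter, where it was not tested.

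The label prefix (678 or 679), whose meaning the labels do not give, splits WT into 2 and 3 libraries and NFAT5 KO into 3 and 2. Within prefix 678 the log2 fold changes were 0.32 for Hspa8, 0.25 for Hsp90ab1, 1.05 for Dnajb2, 0.46 for Dnajb4, 0.73 for Dnajb9 and -1.80 for Hspb1. Within prefix 679 they were 0.38, 0.33, 1.04, 0.71, 0.85 and -2.24 in the same order. All 6 kept their direction in each part, and Dnajb9 within 679 (adjusted p = 0.0449) was the 1 that passed. No member, and no gene of 13081, passed edgeR's test of the interaction of genotype with prefix, and 377 genes had an unadjusted p below 0.05.

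Nfat5 itself was at 9.2 to 18.3 CPM in WT and 11.6 to 26.7 CPM in NFAT5 KO (log2 fold change -0.04, SE 0.27, adjusted p = 0.957). This sum includes exons outside the floxed part, which the labels do not name, so it does not check the genotype labels. Library totals were 22444310 to 32001285 estimated counts.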

How the data were processed

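RNA of tumour CD8 T cells was measured in 5 WT and 5 NFAT5 KO libraries. The authors deposited 1 table per library listing each transcript's estimated count, TPM and lengths, per the file headers, and the tool was Salmon 0.14.1 per the submitters' processing notes. Which annotation, strandedness and trimming were used is not given in the sources used here. Of 140919 transcripts, 140045 (99.38%) matched GENCODE M21 by identifier, and the rest held 0.191% to 0.228% of a library's counts. Estimated counts were added up by gene, then rounded, and TPM was summed for levels between genes. Tests used edgeR 4.0.16 in R 4.3.3: TMM, filterByExpr, robust quasi-likelihood fit of genotype over all 10 libraries, and Benjamini-Hochberg adjustment over 13081 genes, checked on simulated counts. Alternatives used DESeq2 1.42.0 and limma 3.58.1.

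The members and the gene lists were chosen with earlier results of these data known. Members with an unadjusted p below 0.05 are given in every library; from each other pathway list up to 4 genes that passed are named, or, where none passed, up to 2 with the smallest p may be. Marker lists are given by their summed level, and Adgre1, Ighm, Pecam1, Ptprc, Cd2 and Cd5 were named after their values were seen. Motifs were counted in the 250 bases before each RefSeq start. Protein sequences were not used here, although comparing chaperone C-termini had been planned. Depth was 22444310 to 32001285 counts a library, and Salmon's model divides reads among similar transcripts, so near-identical genes such as Hspa1a and Hspa1b are less certain.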

Additional observations from a re-analysis of the deposited data

Results flagged for a closer look

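Within a group of 5 libraries, 1 library stood far from the other 4 (by Dixon's 95% criterion) in 6 of the 64 sets of values looked at, the 32 members in each genotype. Chance marks about 1 in 20 such sets. In NFAT5 KO, library 678_5 was high for Hspa1a, at 275 CPM, and for Hspa1b, at 424 CPM. In the same genotype, library 678_3 was high for Sdf2l1, at 101 CPM. In WT, library 679_4 was high for Hsp90b1, at 805 CPM, and for Manf, at 118 CPM, and low for Edem1, at 202 CPM. No difference between genotypes differed between the label prefixes past the threshold.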

How the results depend on the processing

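The number of libraries limits these results, and for Hspb1, with under 10 counts in 1 library, depth does too. Of 798 single-gene values recomputed under the alternatives, 692 kept direction and call, 36 lost the call, 14 gained it and 56 turned sign. In each case below the cause was not tested. All genes called numbered 1179 and went to 1893 with DESeq2's Wald test, 0 (1449 at an unadjusted p below 0.05) and 325 within prefixes 678 and 679, 4 with the macrophage covariate, 0 (400 unadjusted) with the cell cycle covariate, and 696 (without WT 678_2) to 1276 when 1 library was left out. Members called higher went from 5 to 10 with the Wald test, 8 with limma-voom, 0 and 1 within prefixes 678 and 679, 0 with either covariate, and 2 (without WT 678_2) to 7 (without WT 678_4) when 1 library was left out. Members called lower went from 1 to 0 under the 5 CPM minimum, where Hspb1 is not tested, within either prefix and with either covariate, and to 0 (without WT 678_2) to 2 (without NFAT5 KO 678_5) when 1 library was left out. The cytosolic median of 0.35 went to 0.18 (macrophage) and -0.062 (cell cycle), and to 0.21 to 0.38 when 1 library was left out. The mitochondrial median went to -0.022 (cell cycle), and to 0.028 (without NFAT5 KO 679_6) to 0.114 when 1 library was left out. The ER median of 0.11 went to 0.017 and 0.03 within prefixes 678 and 679, 0.035 (macrophage), and 0.069 (without WT 679_5) to 0.11 when 1 library was left out.

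These signs turned. With the cell cycle covariate the values were -2.12 for Hspa1a, -0.92 for Hspa1b, -0.26 for Hsph1, -0.031 for Hsp90aa1, -0.62 for Bag3, -0.33 for Hsf1, -0.062 for Dnaja1, -0.18 for Hspd1, -0.53 for Ern1, -0.10 for Hspa5, -0.99 for Hyou1, -0.084 for Calr, -0.27 for Edem1, 0.55 for Sdf2l1, 0.12 for Manf, 0.16 for Creld2, 0.12 for Pdia3 and 0.077 for Herpud1. With the macrophage covariate they were -1.57 for Hspa1a, -0.92 for Hspa1b, -0.082 for Bag3, -0.15 for Edem1, 0.011 for Pdia3 and 0.035 for Herpud1. With the melanoma covariate they were -0.11 for Hspa1a, -0.022 for Bag3 and -0.036 for Edem1. Within prefix 679 they were -1.36 for Hspa1a, -0.97 for Hspa1b, 0.03 for Creld2 and -0.085 for Edem1. With limma-voom they were -0.92 for Hspa1a, -0.40 for Hspa1b, 0.005 for Creld2 and -0.073 for Edem1. With the prefix as a block Hspa1a was at -0.27 and Edem1 at -0.035. Edem1, at 0.00, was also at -0.002 (DESeq2 size factors and Wald test), -0.04 (library size alone), -0.013 (no filter), -0.007 (5 CPM minimum) and -0.10 (length offset). When 1 library was left out, Hspa1a ran from -1.19 to 0.61, Hspa1b from -0.54 to 0.76, Bag3 from -0.08 to 0.14, Creld2 from -0.10 to 0.02 and Edem1 from -0.085 to 0.028.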
